A study of Mus musculus with 9 samples.

Results

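The interferon-stimulated genes described here are 45 mouse genes that cells switch on, or need, when interferon is sensed. They were taken by name from a list, with no threshold on their values, and all 45 were among the 55487 genes of the count table. Of these, 34 had enough reads to be tested, among 16955 genes tested in all. The measurements are poly-A RNA-seq read counts from MCEC, an established line of murine cardiac endothelial cells, in 9 libraries. Libraries fell into 3 groups of 3. The WT group holds cells labelled wild type, the KD group cells with knockdown of Zbtb46, and the OE group cells with enforced overexpression of Zbtb46, which encodes a zinc finger transcription factor. How the cells were modified is not in the labels, nor whether KD or OE was a clone or a pool, nor whether replicates were separate cultures. No cells with a control vector were analysed here, and no interferon was named as a treatment in any group. The p-values therefore measure only the spread between these libraries, which may be technical.

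Type I interferons bind the Ifnar1 and Ifnar2 receptor chains, and interferon gamma binds Ifngr1 and Ifngr2. Receptor-bound Jak kinases then phosphorylate STAT proteins, and Stat2 and Irf9 are subunits of the resulting factor ISGF3. ISGF3 binds the interferon-stimulated response element (ISRE) in the promoters of target genes, whose products block viral replication. Interferon gamma acts through a different sequence, the gamma-activated site (GAS). Endothelial cells line blood vessels and carry both kinds of receptor.

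The depth per library was between 39491828 and 55745849 counts. A ribosomal RNA feature took 7.322% to 17.116% of the counts in WT, 9.435% to 11.841% in KD and 14.231% to 18.026% in OE. Zbtb46 itself read 13.3, 14.4 and 13.2 CPM (counts scaled to library size) in WT, 11.7, 11.4 and 10.7 CPM in KD, and 192, 189 and 194 CPM in OE. Zbtb46 thus fell by 17.8% in KD (edgeR adjusted p = 0.00144) and rose 14.0-fold in OE (edgeR adjusted p = 3.22e-21). Of 22 endothelial markers, 10 had enough reads to be tested. Eng, at a mean of 125 CPM in WT, Flt1 at 17.2 CPM and Ptprb at 11.1 CPM were present, while Erg had no count and Cdh5, Pecam1, Cldn5, Emcn, Icam2 and Sox17 had at most 36 counts each over all libraries. The label of an endothelial cell thus rested on few of its defining markers. Of 12 leukocyte markers, 6 had at most 3 counts in every library, and Ptprc, Itgam and Spi1 had 5, 7 and 4 counts over all 9 libraries. The 3 that could be tested were Cd68, with 1694 counts, Cd74, with 295, and Csf1r, with 190.

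The promoters of many of these genes carry the letters that ISGF3 and interferon regulatory factors recognise, and a few sequences are shown so that these letters can be seen in place. RefSeq promoters on GRCm38.p6 (250 bases before to 50 bases after the start) were held for 37 of the 45 genes. The ISRE core was searched as 2 copies of GAAA with any 2 bases between them, which reads as 2 copies of TTTC on the other strand, and overlapping matches were kept. At least 1 match stood in 19 of the 37 promoters, or 51.4%, against 3.44% of all 32851 promoters in the table. The GAS letters TTCNNNGAA, which read the same on both strands, stood in 11 of the 37 promoters, or 29.7%, against 8.3% of all promoters. A match is a description of the letters and not evidence of binding. The 3 tested genes with an ISRE match whose levels differed most from WT in KD or OE were Ifit1, Gbp2 and Isg15. Their upstream bases are printed 5′ to 3′ on the gene's strand from position -250, with the ISRE matches in capitals. The Ifit1 stretch lies at chr19:34640639-34640888 on the plus strand, that of Gbp2 at chr3:142620413-142620621 on the plus strand, and that of Isg15 at chr4:156200819-156201068 on the minus strand.
Ifit1: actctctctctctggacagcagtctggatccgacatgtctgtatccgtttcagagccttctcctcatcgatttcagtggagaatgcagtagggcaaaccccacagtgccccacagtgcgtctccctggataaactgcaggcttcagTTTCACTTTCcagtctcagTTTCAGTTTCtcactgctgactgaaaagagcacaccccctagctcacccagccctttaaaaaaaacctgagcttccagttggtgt
Gbp2: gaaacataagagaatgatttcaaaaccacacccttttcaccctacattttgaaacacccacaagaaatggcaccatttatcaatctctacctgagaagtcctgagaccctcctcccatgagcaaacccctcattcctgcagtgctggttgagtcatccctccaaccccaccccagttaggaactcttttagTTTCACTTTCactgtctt
Isg15: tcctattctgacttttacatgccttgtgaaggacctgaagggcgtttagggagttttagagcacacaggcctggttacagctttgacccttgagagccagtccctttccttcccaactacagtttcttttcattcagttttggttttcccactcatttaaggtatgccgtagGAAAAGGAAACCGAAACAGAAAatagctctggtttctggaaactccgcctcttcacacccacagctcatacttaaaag
The Isg15 run holds 3 matches that overlap, starting at -78, -72 and -66. Ifit1 has 2 separate matches on the other strand, at -104 and -85, and Gbp2 has 1, at -59. For comparison, the upstream bases of Oasl2 and Irf7 held no match to these letters. The Oasl2 stretch lies at chr5:114896684-114896933 on the plus strand, and that of Irf7 at chr7:141266462-141266674 on the minus strand.
Oasl2: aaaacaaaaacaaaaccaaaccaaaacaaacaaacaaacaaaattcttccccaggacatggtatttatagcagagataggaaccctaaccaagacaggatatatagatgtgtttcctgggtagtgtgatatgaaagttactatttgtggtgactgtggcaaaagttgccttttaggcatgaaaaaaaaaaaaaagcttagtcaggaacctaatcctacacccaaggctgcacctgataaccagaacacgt
Irf7: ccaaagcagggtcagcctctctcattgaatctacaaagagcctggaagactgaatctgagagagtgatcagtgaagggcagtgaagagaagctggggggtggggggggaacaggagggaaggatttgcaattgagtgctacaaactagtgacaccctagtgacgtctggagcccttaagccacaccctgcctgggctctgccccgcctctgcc
No match says only that these letters are absent from this window, and both genes belong to the interferon-induced family all the same. Among the 15 tested genes of the family with an ISRE match, 7 were higher and 2 lower in OE than in KD. Among the 16 with a promoter and no match, 3 were higher and 3 lower. Ifit1, 1 of the 7 higher genes with a match, had enough reads to be tested only through its OE libraries. Its call is therefore not independent of that requirement. Over all tested genes with a match, 388 in number, 22.9% were higher and 27.8% lower, against 23.0% and 26.5% of the 10256 without one.

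**Figure D1:**
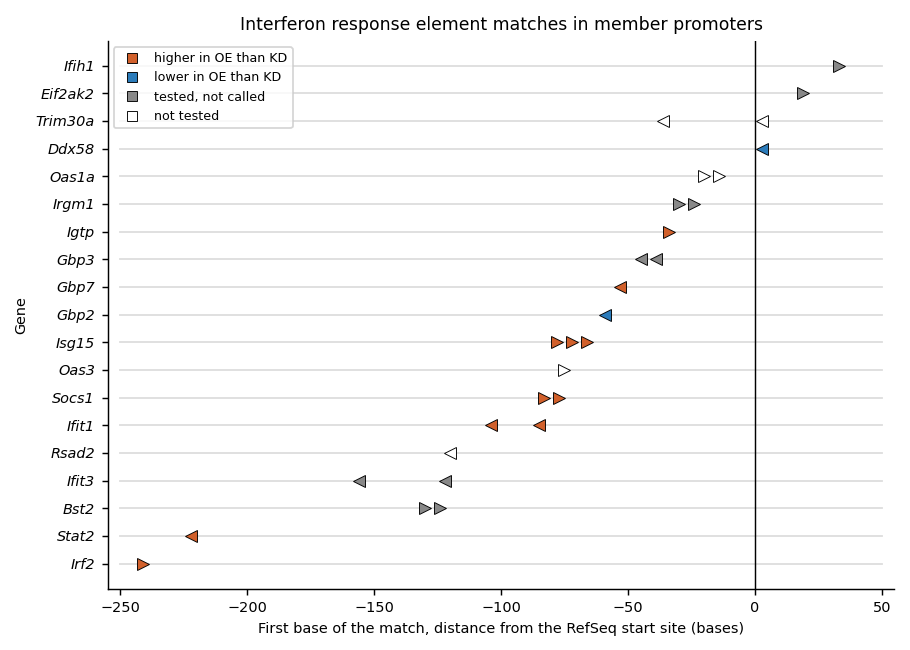
Each triangle marks the first base of an ISRE match in the promoter of a family member, plotted by its distance in bases from the RefSeq start, and points right for a match on the gene's strand and left for the other strand. Colours give the result of OE against KD, and the matches span -241 in Irf2 to 33 in Ifih1.

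The family spanned a wide range of levels in unmodified cells. To compare genes, levels were divided by exon length (CPM per kb, mean ± SD over 3 libraries). Bst2, the membrane tether that holds virions on the cell surface, was the highest in WT at 18.8 ± 1.21 CPM per kb. Ifnar1 followed at 13 ± 0.754, then Ifnar2 at 12.1 ± 0.807, Trim25 at 11.4 ± 0.483 and Ifngr2 at 11.2 ± 0.39 CPM per kb. The ranges of Ifnar1, Ifnar2, Trim25 and Ifngr2 overlapped from each to the next, whereas Bst2 lay above Ifnar1 in every WT library. Only 13 of the 45 genes exceeded the median of all tested genes, 3.61 CPM per kb. Genes best known for their induction by interferon were spread over the order. Ifit2 read 8.6 CPM per kb at rank 7, Isg15 1.66 ± 0.11 at rank 19, Ifit3 0.225 ± 0.0547 at rank 30 and Ifit1 0.0564 ± 0.005 at rank 34. The 11 genes that could not be tested, among them Mx1, Oas2 and Rsad2, held the lowest ranks, 35 to 45. In the order of WT levels, 34 of 44 neighbouring pairs of genes had overlapping libraries, so most ranks between neighbours were not distinct.

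**Figure D2:**
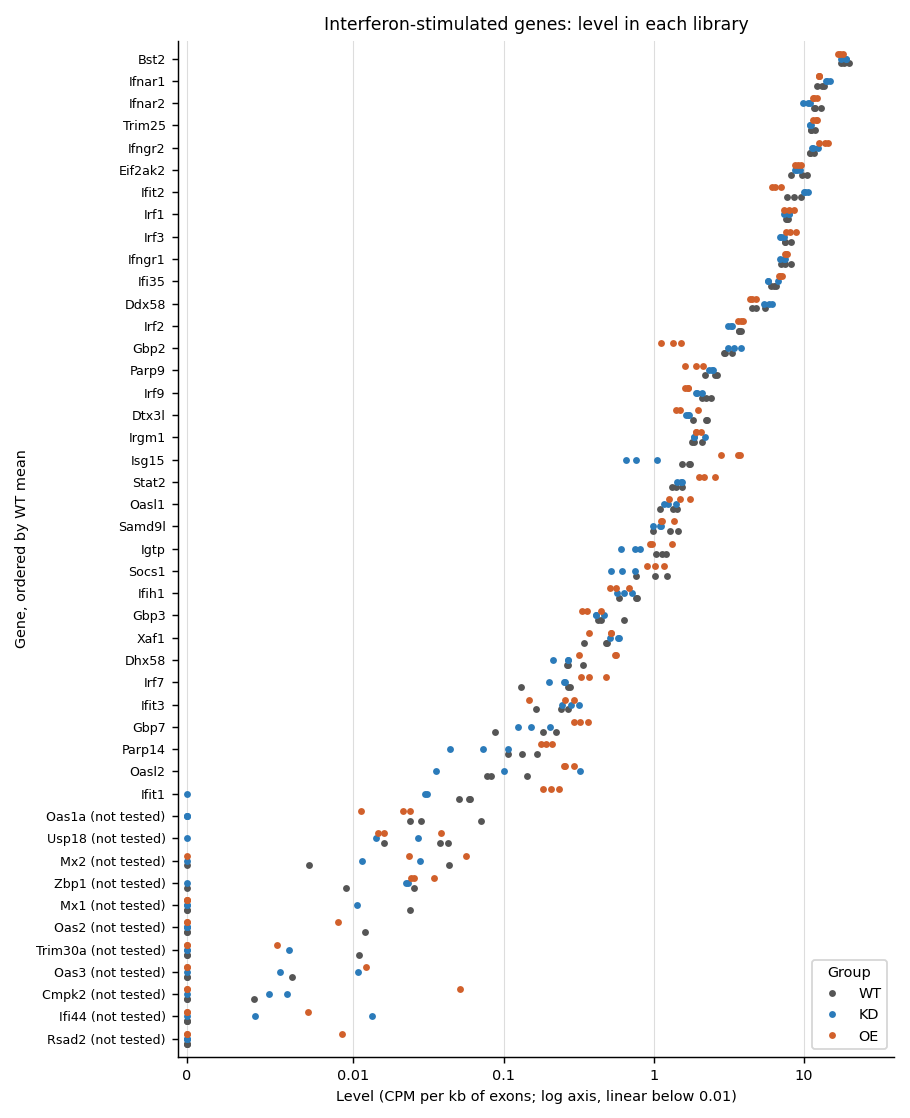
Each point is a library's level in CPM per kb of exons, on a logarithmic axis that is linear below 0.01, with genes ordered by WT mean and colours for WT, KD and OE. Bst2 sits at the top, the receptors follow, and the 11 genes that could not be tested lie at or near 0 in all groups.

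Among those 11 genes the reads of all 9 libraries came to 147 counts. Zbp1, a sensor of Z-form nucleic acid, had 28 counts, and Mx2, a dynamin-like antiviral GTPase, had 28. Usp18, which removes Isg15 from proteins and damps the receptor, had 27 counts, and Oas1a 17 with none in KD. The nucleotide kinase Cmpk2 had 13 counts, 10 of them in OE replicate 1. Oas3 had 11, Ifi44 7, Mx1 6, Oas2 4, Trim30a 4 and Rsad2, the radical SAM enzyme viperin, 2 counts. These genes did not enter the fit reported below. A fit with no filter beyond 1 count, over 33519 genes, included all 11 and called 0 of them in any comparison with edgeR, with a lowest adjusted p of 0.132. At an unadjusted p under 0.05 there was 1 in KD against WT, Oas1a, and 0 in each of the other comparisons. Low values in the table were more often even than odd: the value 2 occurred 20563 times and 1 occurred 12879 times, and 4 occurred 9883 times against 4342 for 3. How paired reads were counted is not given in the sources used here, so a count of 2 need not stand for 2 molecules.

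Each of 3 comparisons was made with edgeR's quasi-likelihood test and Benjamini-Hochberg adjustment over the 16955 tested genes, and a gene was called at an adjusted p under 0.05. Both comparisons against WT share the WT libraries. In KD against WT, 3 members were higher (Ifnar1, Ddx58 and Ifit2) and 6 lower (Ifnar2, Irf2, Igtp, Isg15, Parp14 and Socs1), or 9 of 34. Over all tested genes 21.3% were called, 11% higher and 10.4% lower. The median log2 fold change of the 34 was -0.044, against -0.002 for all genes. The KD and WT libraries did not overlap for 12 members, against 34.7% of all tested genes. In a bulk sample, fewer cells making a transcript and less of it per cell cannot be told apart. Without WT replicate 3 the higher calls went from 3 to 0, and without KD replicate 1 or KD replicate 3 the lower calls went from 6 to 2. Called genes then made up 18.5% of all tested genes without WT replicate 3, 15.8% without KD replicate 1 and 15.3% without KD replicate 3. With library totals in place of TMM scaling the higher calls also went to 0. That fit called 14.6% of all tested genes, and 35.8% of its calls were higher, against 51.4% in the reported fit.

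In OE against WT, 7 members were higher (Ifngr2, Stat2, Irf7, Dhx58, Ifit1, Gbp7 and Isg15) and 5 lower (Irf9, Ifit2, Gbp2, Dtx3l and Parp9), or 12 of 34. Over all tested genes 36.4% were called, 17.0% higher and 19.5% lower. The libraries of the groups did not overlap for 13 members, against 45.1% of all tested genes. The median log2 fold change of the 34 was 0.034, against 0.002 for all genes. With library totals alone it was -0.029, against -0.06 for all genes. Without WT replicate 3 or without OE replicate 1 the higher calls went from 7 to 4, and without OE replicate 1 the lower calls went from 5 to 3. Of all tested genes, 33.9% were then called without WT replicate 3 and 30.1% without OE replicate 1. Set directly against KD, OE had 12 higher and 6 lower members of 34, where 41.5% of all genes were called, 19.4% higher and 22.1% lower. The median log2 fold change of the members was then 0.132, against 0.011 for all genes. The OE and KD libraries did not overlap for 21 members, against 55.4% of all tested genes. Against WT the share of members called was near the background in both comparisons, and members moved in both directions in all 3.

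**Figure D3:**
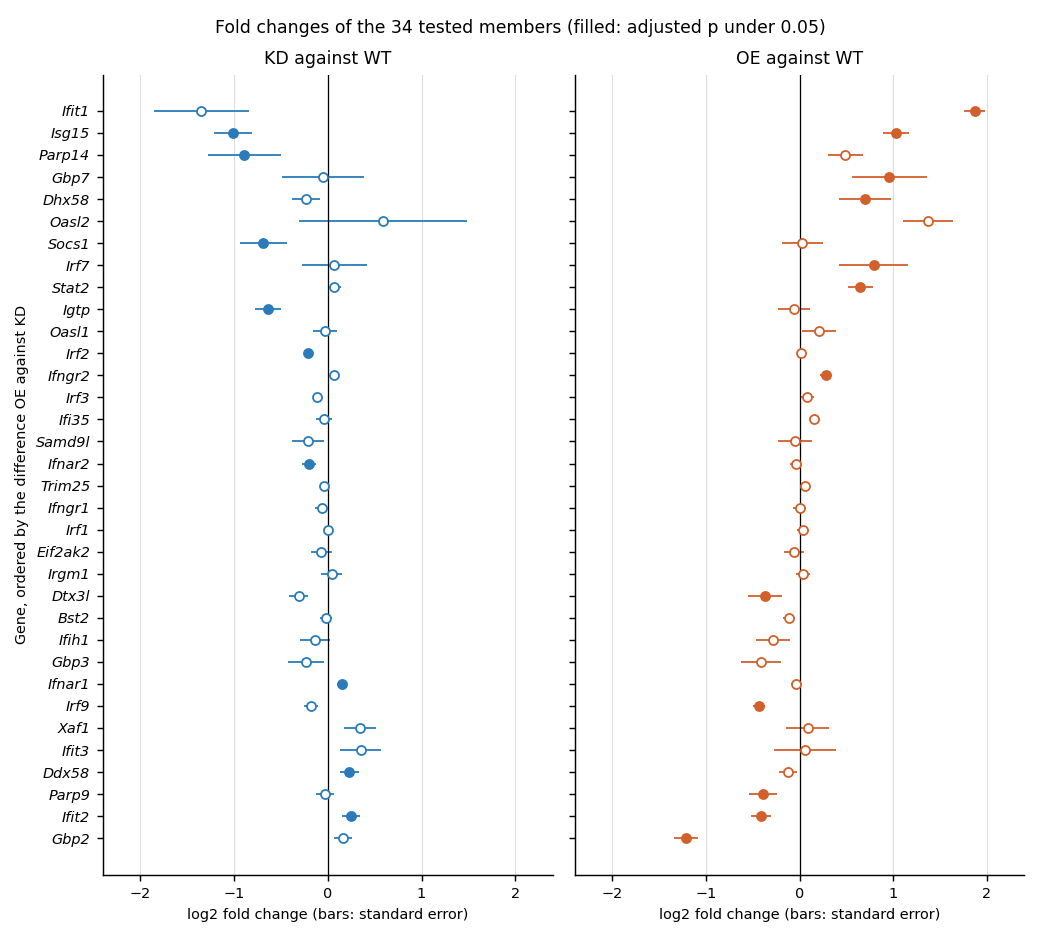
Points are log2 fold changes of the 34 tested members in KD against WT and in OE against WT, with bars of 1 standard error and filled symbols for an adjusted p under 0.05. For genes with few counts, such as Ifit1, these bars are too short. Ifit1 and Isg15 lie left of 0 in KD and right of 0 in OE, and Gbp2 has the lowest value in OE, -1.21.

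Among the members, the direction of the calls differed with the level of the gene. A split at a mean of 5 CPM, chosen after the values were seen, left 13 members below and 21 at or above it. Ifit1, a low member, entered the fit only through its OE libraries. Of the 13 low members, 0 were higher and 4 lower in KD than in WT, 5 were higher and 0 lower in OE than in WT, and 7 were higher and 0 lower in OE than in KD. Of all tested genes in that low range, 2.04% were higher and 7.31% lower in KD, 7.12% higher and 10.0% lower in OE, and 11.6% higher and 9.94% lower in OE against KD. Of the 21 members at or above 5 CPM, 3 were higher and 2 lower in KD, 2 higher and 5 lower in OE, and 5 higher and 6 lower in OE against KD. All genes of that range gave 16.8% and 12.4% in KD, 23.3% and 25.6% in OE, and 24.5% and 29.9% in OE against KD. Of 29 tested pathway genes below 5 CPM that are not members, 0 were higher and 2 lower in KD than in WT. In OE, 1 of these was higher and 5 lower than in WT, and 8 were higher and 6 lower than in KD. Many of the members' calls against WT were lost on leaving out 1 library. Among the low members these were Igtp, Parp14 and Socs1 in KD and Irf7, Dhx58 and Gbp7 in OE. Among the high members they were Ifnar1, Ifnar2, Irf2, Ddx58 and Ifit2 in KD and Dtx3l and Parp9 in OE. A difference between the low and the high members was not tested.

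Gene positions are GRCm38 gene bounds from GENCODE M21. The 4 receptor chains were all expressed, and their differences were small. Ifnar1 (chr16:91485238-91507441, plus strand), the low-affinity chain for type I interferon, read 77.9, 80.9 and 72.1 CPM in WT, 83.0, 88.5 and 85.1 CPM in KD, and 75.1, 75.3 and 74.6 CPM in OE. Every KD library was above every WT and OE library. It rose by 0.15 on the log2 scale in KD (SE 0.056, edgeR adjusted p = 0.0318), and OE was 0.19 below KD, a log2 fold change of -0.19 (SE 0.027, edgeR adjusted p = 0.00362). The KD call was lost without WT 3, KD 2 or KD 3, with values of 0.11 to 0.15 and adjusted p up to 0.167. It was also lost with library totals alone, with only the groups compared and with regional medians removed, with adjusted p up to 0.31. Ifnar2, the high-affinity chain, was 35.1 ± 1.9 CPM (SD, n = 3) in KD against 40.4 ± 2.69 in WT. That fall of -0.20 (SE 0.071, edgeR adjusted p = 0.0227) was lost without WT 3, KD 1 or KD 2, where adjusted p reached 0.143. Ifnar2 was also 0.16 higher in OE than in KD (edgeR adjusted p = 0.0454), a call lost on leaving out any of KD 1, KD 2 and the 3 OE libraries, with adjusted p up to 0.262, and with library totals, no filter or regional medians removed. Ifngr2, the signalling chain for interferon gamma, was 42.1 ± 1.47 CPM in WT, 44.0 ± 2.1 in KD and 51.1 ± 3.49 in OE. It rose by 0.28 in OE against WT (SE 0.064, edgeR adjusted p = 0.000811), with all OE libraries above all others. Ifngr1, the ligand-binding chain, was 21.6 CPM in both WT and OE and 20.7 CPM in KD, with overlapping libraries.

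The transcription factors of the response moved in different directions. Stat2 (chr10:128270559-128292849, plus strand), a subunit of ISGF3, read 7.83, 9.11 and 8.28 CPM in WT, 9.08, 8.44 and 9.01 CPM in KD, and 15.2, 12.7 and 11.8 CPM in OE. All OE libraries stood above the other 6, while WT and KD overlapped. Stat2 was 1.57-fold higher in OE than in WT, with a log2 value of 0.65 (SE 0.13, edgeR adjusted p = 4.42e-05), and 1.49-fold higher than in KD (edgeR adjusted p = 0.000115). Irf9, the DNA-binding subunit of the same complex, went the other way. It read 13, 12.0 and 11.2 CPM in WT, 10.3, 10.5 and 11.2 CPM in KD, and 9.14, 8.68 and 9.16 CPM in OE. The OE libraries were the lowest of the 9, and Irf9 fell 1.34-fold against WT, a log2 fold change of -0.43 (SE 0.066, edgeR adjusted p = 0.000844). Its difference of -0.24 between OE and KD (edgeR adjusted p = 0.0379) was lost on leaving out KD 2, KD 3 or any OE library, with adjusted p up to 0.139, and with no filter. Irf9 overlaps Rnf31 on the same strand, and how shared reads were counted is not given in the sources used here.

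Irf7 (chr7:141262706-141266481, minus strand), the master inducer of type I interferon genes, was rare, with 1.05, 1.01 and 0.492 CPM in WT, 0.954, 0.754 and 0.963 CPM in KD, and 1.39, 1.8 and 1.24 CPM in OE. The OE libraries were above all others, and WT 3 was the lowest. Irf7 was 1.73-fold higher in OE than in WT, with a log2 value of 0.79 (SE 0.37, edgeR adjusted p = 0.0383). The call was lost without WT 3, KD 1, OE 1 or OE 2, with values of 0.51 to 0.84 and adjusted p up to 0.178, and with library totals or only the groups compared. Irf7 overlaps Phrf1 on the opposite strand, which had 40789 counts over all libraries against 457 for Irf7. Irf2, a repressor that competes with Irf1, was 27.7 ± 0.483 CPM in WT, 23.9 ± 0.796 in KD and 28.1 ± 1.07 in OE. KD was below all other libraries, a fall of -0.21 (SE 0.031, edgeR adjusted p = 0.0169) that was lost without KD 1 or KD 3, where adjusted p reached 0.0885. Irf2 was also 1.17-fold higher in OE than in KD (edgeR adjusted p = 0.00442), a call lost with regional medians removed (adjusted p = 0.0756). Irf3, the factor that nucleic acid sensors activate directly, was called in OE against KD alone, 0.20 higher (edgeR adjusted p = 0.025). That call was lost without KD 2, KD 3, OE 1 or OE 2, with adjusted p up to 0.167, and with library totals or regional medians removed. Irf1, the activator induced by interferon gamma, had the highest mean of the 6 factors. It read 31.3, 30.4 and 30.6 CPM in WT, 31.6, 31.4 and 29.4 in KD, and 31.5, 33.9 and 29.3 in OE, and was called in no comparison.

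Of the nucleic acid sensors, Ddx58 (RIG-I), which detects viral RNA ends, was 34.8 ± 3.74 CPM in WT, 40.8 ± 2.37 in KD and 32.2 ± 1.68 in OE. KD lay above OE in every library, and OE was lower than KD by 0.34, a log2 fold change of -0.34 (SE 0.065, edgeR adjusted p = 0.000575). Ddx58 rose by 0.23 in KD against WT (SE 0.10, edgeR adjusted p = 0.0272) although WT and KD libraries overlapped. The latter call was lost without WT 1, WT 3, KD 1 or KD 3, with values of 0.17 to 0.23 and adjusted p up to 0.138. It was also lost with library totals, only the groups compared or regional medians removed, with adjusted p up to 0.178. Dhx58 (LGP2), a regulator of the same sensors, read 0.87, 1.11 and 0.873 CPM in WT, 0.695, 0.879 and 0.881 in KD, and 1.81, 1.82 and 1.04 in OE. OE 1 and OE 2 were high, whereas OE 3 lay within the WT range. Dhx58 was 1.63-fold higher in OE than in WT (log2 0.70, SE 0.28, edgeR adjusted p = 0.0465). That call was lost without WT 1, WT 3, any KD library, OE 1 or OE 2, with adjusted p up to 0.172, with the replicate number as a block, at 0.0517, and with library totals, no filter, only the groups compared or regional medians removed. In OE against KD Dhx58 was 1.91-fold higher (edgeR adjusted p = 0.00904), a call lost without KD 1 or OE 2, both at 0.0502. Ifih1 (MDA5), the sensor of long double-stranded RNA, was 5.78 ± 0.871 CPM in WT, 5.24 ± 0.63 in KD and 4.78 ± 0.735 in OE and was not called. Eif2ak2 (PKR), the kinase that halts translation, was the most abundant sensor. It read 49.9, 53.5 and 42.2 CPM in WT, 46.0, 44.6 and 48.0 in KD, and 44.5, 48.6 and 46.5 in OE, and the groups overlapped.

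The oligoadenylate synthetases make the messenger that activates RNase L, and only the related Oasl1 and Oasl2 could be tested. Oasl1, known to inhibit Irf7 translation in mice, read 2.87, 3.7 and 3.49 CPM in WT, 3.26, 3.67 and 3.03 in KD, and 4.56, 3.9 and 3.27 in OE. Its libraries overlapped and it was not called. Oasl2 read 0.527, 0.907 and 0.492 CPM in WT, 0.636, 0.226 and 2.05 in KD, and 1.6, 1.86 and 1.64 in OE. All OE libraries were above WT, and KD 3 was above every other library. That single library gave KD the widest spread of any member, a coefficient of variation of 98.6%. The log2 fold change of Oasl2 in OE against WT was 1.37 (SE 0.27) and missed the threshold (edgeR adjusted p = 0.0922). It passed with no filter, with only the groups compared and without KD 2, at adjusted p of 0.000251, 0.00173 and 0.00868. Without KD 3 the value was again 1.37 with an adjusted p of 0.00318, and OE against KD then gave 1.93 with an adjusted p of 0.000852. Oasl1 and Oasl2 are similar neighbours on chromosome 5, and reads of such copies may be shared.

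Among the antiviral effectors, Ifit1 and Ifit2, neighbours on chromosome 19 from a family that binds foreign RNA, moved in opposite directions in OE. Ifit1 (chr19:34640871-34650009, plus strand) read 0.158, 0.134 and 0.157 CPM in WT, 0.0795, 0 and 0.0819 in KD, and 0.618, 0.545 and 0.489 in OE, from 6 to 8, 0 to 4 and 22 to 29 counts. The groups were fully separate, lowest in KD and highest in OE. Ifit1 was 3.66-fold higher in OE than in WT, with a log2 value of 1.87 (SE 0.11, edgeR adjusted p = 0.00998). It was 3.22 higher on the log2 scale in OE than in KD (SE 0.52, edgeR adjusted p = 0.000273). The value of -1.35 in KD against WT did not pass (SE 0.51, edgeR adjusted p = 0.209). With so few counts these standard errors are too small. Both OE calls held under each of 16 alternatives that could test the gene. Ifit1 entered the reported fit only through its OE libraries, where it was high. Its WT and KD libraries were below the count that the filter asks for, so these calls are not independent of the filter. Ifit2 (chr19:34550694-34576419, plus strand) was also far more abundant per kb, and it read 33.6, 37.5 and 30.2 CPM in WT, 39.6, 41.7 and 39.5 in KD, and 25.1, 23.9 and 27.6 in OE. Here OE was lowest and KD highest, again with no overlap. Ifit2 fell 1.33-fold in OE against WT, a log2 fold change of -0.41 (SE 0.11, edgeR adjusted p = 0.000201). Against KD it was 1.58-fold lower in OE (log2 -0.66, SE 0.067, edgeR adjusted p = 3.35e-07). Its rise of 0.25 in KD against WT (SE 0.094, edgeR adjusted p = 0.0174) was lost without WT 3 or KD 2, with values of 0.18 to 0.22 and adjusted p up to 0.0921, and with library totals, at 0.093. Ifit3, of the same family, was 0.392 ± 0.0955 CPM in WT, 0.492 ± 0.0646 in KD and 0.404 ± 0.132 in OE and was not called. Bst2, Ifi35, Xaf1 and Samd9l were not called in any comparison, with log2 fold changes of -0.25 to 0.34. Xaf1, which binds the apoptosis inhibitor Xiap, had the value 0.34, in KD against WT (edgeR adjusted p = 0.263).

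The guanylate-binding proteins and immunity-related GTPases attack vacuoles that hold pathogens. Gbp2 (chr3:142620602-142638008, plus strand) had the largest decrease of any tested member in OE. It read 7.43, 8.29 and 7.45 CPM in WT, 9.52, 7.84 and 8.63 in KD, and 3.39, 3.8 and 2.82 in OE. Every OE library was below every other library, while WT and KD overlapped. Gbp2 fell 2.31-fold against WT, a log2 fold change of -1.21 (SE 0.13, edgeR adjusted p = 2.46e-07), and 2.59-fold against KD (log2 -1.38, SE 0.15, edgeR adjusted p = 2.28e-08). Gbp7 (chr3:142530342-142550149, plus strand), in the same cluster, went up in OE. It read 1.03, 1.26 and 0.492 CPM in WT, 0.854, 0.703 and 1.15 in KD, and 2.05, 1.8 and 1.64 in OE, with all OE libraries highest. Gbp7 was 1.95-fold higher than in WT (log2 0.96, SE 0.40, edgeR adjusted p = 0.0128), a call lost without WT 3 or OE 1, with adjusted p of 0.0582 to 0.0673. It was 2.01-fold higher than in KD (edgeR adjusted p = 0.00835), which held under each of 17 alternatives. Gbp3, the third member of the cluster tested, was 1.63 ± 0.376 CPM in WT, 1.41 ± 0.104 in KD and 1.24 ± 0.191 in OE and was not called. Members of this family have similar sequences, so reads may have been divided among them.

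Igtp (Irgm3; chr11:58199556-58207591, plus strand), a GTPase induced by interferon gamma, read 2.08, 2.45 and 2.28 CPM in WT, 1.63, 1.23 and 1.52 in KD, and 1.96, 2.69 and 1.91 in OE. KD was below all other libraries and WT and OE overlapped. Igtp fell 1.56-fold in KD against WT (log2 -0.64, SE 0.14, edgeR adjusted p = 0.0319) and was 1.49-fold higher in OE than in KD (edgeR adjusted p = 0.0295). The fall was lost without WT 2, WT 3, KD 2 or KD 3, with adjusted p up to 0.131, and the OE difference without KD 2, KD 3 or OE 2, with adjusted p up to 0.18, and with library totals or no filter. Igtp overlaps Irgm2 on the same strand, so its reads cannot be fully told apart. Irgm1, which regulates the other GTPases of the family, read 12.1, 10.7 and 10.4 CPM in WT, 10.7, 12.8 and 10.8 in KD, and 11.9, 11.1 and 11.1 in OE. It was not called.

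Isg15 (chr4:156199424-156200818, minus strand), a ubiquitin-like protein that is attached to targets during infection, was called in all 3 comparisons, as among the members only Ifit2 also was, with KD below and OE above WT. It read 1.32, 1.29 and 1.16 CPM in WT, 0.795, 0.578 and 0.492 in KD, and 2.73, 2.85 and 2.11 in OE, from 50 to 77, 23 to 40 and 95 to 141 counts. The 3 groups did not overlap. Against WT, Isg15 fell 2.01-fold in KD (log2 -1.01, SE 0.20, edgeR adjusted p = 0.00649). It was 2.04-fold higher in OE than in WT, with a log2 value of 1.03 (SE 0.14, edgeR adjusted p = 0.00107). OE exceeded KD 4.1-fold (log2 2.03, SE 0.23, edgeR adjusted p = 6.57e-07). All 3 calls held under each of 17 alternatives. The 215 expressed genes of the 20 Mb stretch of chromosome 4 that holds Isg15 shifted the same way, with medians of -0.17 in KD and 0.30 in OE. With that regional median removed the values of Isg15 were -0.83, 0.69 and 1.52, with adjusted p of 0.0167, 0.0285 and 2.45e-05.

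The other ubiquitin and ADP-ribose genes were mixed. Parp14, an ADP-ribosyltransferase, read 1.0, 1.55 and 1.23 CPM in WT, 0.675, 1.0 and 0.41 in KD, and 1.77, 1.94 and 1.64 in OE. OE was above all others, and KD 2 reached the level of WT 1. Parp14 was 2.59-fold higher in OE than in KD (log2 1.37, SE 0.36, edgeR adjusted p = 0.000572), under each of 17 alternatives as well. It was 1.85-fold lower in KD than in WT (log2 -0.89, SE 0.39, edgeR adjusted p = 0.0363). That fall was lost without WT 2, WT 3, KD 1, KD 3, OE 1 or OE 2, with values of -0.91 to -0.61 and adjusted p up to 0.193, and with only the groups compared. Dtx3l, a ubiquitin ligase, and Parp9, its partner, share an overlap on opposite strands. Dtx3l was 12.0 ± 1.41 CPM in WT, 9.66 ± 0.269 in KD and 9.3 ± 1.72 in OE. It fell in OE against WT (log2 -0.37, SE 0.18, edgeR adjusted p = 0.0175) although OE 3 lay within the WT range, and the call was lost without WT 1, WT 2, OE 1 or OE 2, with adjusted p up to 0.116. Parp9 was 12.0 ± 1.22 CPM in WT, 11.7 ± 0.421 in KD and 9.18 ± 1.26 in OE. Its OE libraries were all below the others, with falls of -0.39 against WT (SE 0.15, edgeR adjusted p = 0.00671) and -0.35 against KD (edgeR adjusted p = 0.0111). Both were lost without OE 1, at -0.28 with an adjusted p of 0.0591 and at -0.25 with 0.0887. Gm15564, a gene antisense to Parp9, had 36291 counts against 4638 of Parp9, and reads of the 2 strands cannot be told apart without strand information. Trim25, the ligase that activates RIG-I, read 63.6, 68.6 and 64.0 CPM in WT, 63.1, 64.3 and 63.5 in KD, and 65.8, 69.2 and 70.2 in OE and was not called.

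Of the feedback genes only Socs1 (chr16:10782240-10785536, minus strand), the inhibitor of Jak kinases, could be tested. It read 2.21, 2.96 and 3.58 CPM in WT, 1.51, 2.19 and 1.78 in KD, and 2.94, 3.39 and 2.62 in OE. All KD libraries were below all others, KD 2 only just below WT 1, and OE lay within the WT range. Socs1 fell 1.61-fold in KD against WT (log2 -0.69, SE 0.25, edgeR adjusted p = 0.019), a call lost without WT 3, KD 1 or KD 3, with values of -0.68 to -0.52 and adjusted p up to 0.107. It was 1.65-fold higher in OE than in KD (log2 0.72, SE 0.18, edgeR adjusted p = 0.00709), a call lost without KD 1, at 0.59 with an adjusted p of 0.0536.

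**Figure D4:**
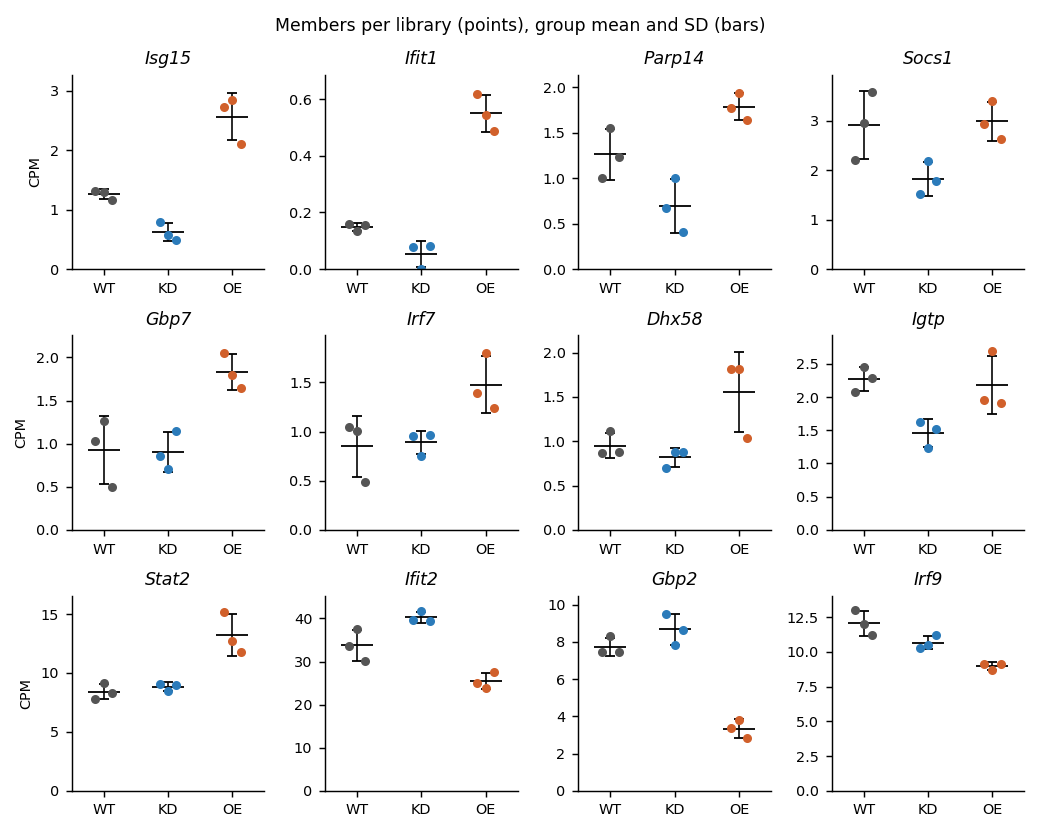
Points are CPM of 12 members in each library, with group means and bars of 1 SD, on axes that start at 0 and differ between panels. Isg15 and Ifit1 step up from KD to WT to OE, Ifit2 and Gbp2 are lowest in OE, and Igtp and Socs1 are lowest in KD.

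Genes of the pathway outside the 45 were read from a list of 134, of which 91 could be tested. In KD against WT 7 were higher and 14 lower, where all tested genes gave 11% and 10.4%. In OE against WT 9 were higher and 30 lower, where all tested genes gave 17.0% and 19.5%. In OE against KD 21 were higher and 27 lower, where all tested genes gave 19.4% and 22.1%. The counts of its lists below are read against the same shares. The interferons themselves were almost absent. Of 21 ligand genes 14 had no count, and all 21 together had 60 counts. Ifnb1, the main early type I interferon, had 2, 0 and 2 counts in WT, none in KD, and 0, 0 and 4 in OE. Their summed level was 0.168 to 0.201 CPM in WT, 0.0251 to 0.041 in KD and 0.162 to 0.267 in OE, and most of these reads, 34 counts, were of Ifnz.

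Kinases that relay the signal from the receptors also differed in OE. Tyk2, the kinase of Ifnar1, was 26.3 ± 0.675 CPM in WT, 28.8 ± 1.34 in KD and 17.7 ± 0.419 in OE, with OE below all others. It fell by -0.57 in OE (edgeR adjusted p = 4.7e-07), and by -0.18 (adjusted p = 0.0331) with its regional median of -0.38 removed. Jak1, shared by both receptor types, was 153 ± 6.61 CPM in WT, 151 ± 1.74 in KD and 195 ± 4.11 in OE, and rose by 0.36 in OE (edgeR adjusted p = 8.04e-07). With the regional median of 0.34 removed the value was 0.02 (adjusted p = 0.756). Jak2 and Stat3 both fell by -0.28 in OE against WT (edgeR adjusted p = 0.000786 and 5.55e-06).

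Among 13 tested genes that lead to interferon production, 2 were higher and 3 lower in KD, 3 higher and 4 lower in OE, and 5 higher and 4 lower in OE against KD. Irf5, a factor downstream of Toll-like receptors, was 31.0 ± 1.89 CPM in WT, 21.4 ± 1.94 in KD and 34.5 ± 1.13 in OE, and fell 1.45-fold in KD (edgeR adjusted p = 1.47e-05). Myd88, the Toll-like receptor adaptor, was 17.9 ± 1.56 CPM in WT, 17.5 ± 0.796 in KD and 8.85 ± 0.39 in OE, and fell 2.02-fold in OE (edgeR adjusted p = 7.47e-09). Of 13 tested inhibitors, 1 was higher and 1 lower in KD, 1 higher and 6 lower in OE (all genes 17.0% and 19.5%), and 1 higher and 5 lower in OE against KD. Socs3, an inhibitor of Jak signalling, was 61.3 ± 3.66 CPM in WT, 48.3 ± 2.03 in KD and 46.6 ± 1.66 in OE, and fell in both, by -0.34 and -0.39 (edgeR adjusted p = 0.000135 and 9.46e-06). Pias1, an inhibitor of STAT signalling, fell by -0.50 in OE (edgeR adjusted p = 6.47e-07) and by -0.16 with its regional median of -0.33 removed. Of 60 tested interferon-induced genes outside the 45, 3 were higher and 10 lower in KD, 4 higher and 16 lower in OE (all genes 17.0% and 19.5%), and 14 higher and 14 lower in OE against KD. Ifitm3, which blocks viral entry, was 37.8 ± 3.87 CPM in WT, 25.5 ± 0.866 in KD and 33.7 ± 1.24 in OE, and fell 1.48-fold in KD (edgeR adjusted p = 4.78e-06). Pml, the scaffold of nuclear bodies, was 75.3 ± 3.45 CPM in WT, 80.4 ± 0.957 in KD and 45.7 ± 0.779 in OE. It fell by -0.72 in OE (edgeR adjusted p = 2.02e-10), and by -0.30 (adjusted p = 5.51e-05) with its regional median of -0.42 removed.

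**Figure D5:**
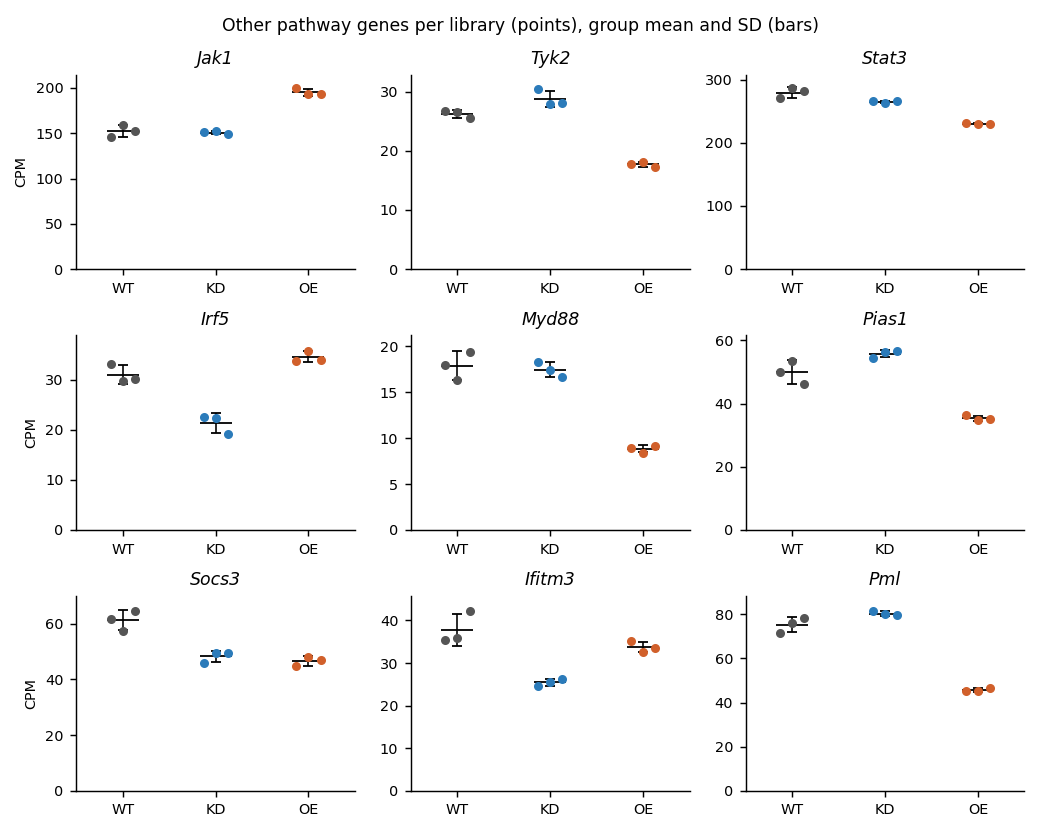
Points are CPM of 9 other pathway genes in each library, with group means and bars of 1 SD, on axes that start at 0. Tyk2 is lowest in OE, Jak1 is highest in OE, and Irf5 and Ifitm3 are lowest in KD.

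Markers of other cell types also moved between groups. Summed over 10 mesenchymal markers the level was 8100 to 8970 CPM in WT, 8050 to 8170 in KD and 5080 to 5190 in OE. Most of that sum was Col1a1 and Col3a1, at means of 5260 and 3150 CPM in WT. Of the 8 tested, 7 were lower in OE than in WT, where 19.5% of all tested genes were lower. Summed endothelial markers were 164 to 176 CPM in WT, 146 to 154 in KD and 118 to 132 in OE, mostly Eng reads. Of 10 tested, 2 were higher and 6 lower in OE than in WT (all genes 17.0% and 19.5%). In KD against WT, 1 of the 10 was higher and 5 were lower (all genes 11% and 10.4%). Summed epithelial markers were 461 to 563 CPM in WT, 437 to 459 in KD and 462 to 483 in OE, mostly Krt19 reads. Summed cardiomyocyte markers were 0.874 to 1.59 CPM in WT, 0.819 to 1.49 in KD and 1.8 to 2.15 in OE. Summed leukocyte markers were 4.9 to 5.85 CPM in WT, 5.82 to 6.34 in KD and 4.18 to 5.35 in OE, mostly Cd68 reads, and none of the 3 tested was called against WT. The part of these markers in the differences of the interferon-stimulated genes was not tested.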

How the data were processed

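Poly-A RNA-seq counts of 9 MCEC libraries were analysed, 3 each of WT, KD and OE. The deposited table holds whole-number read counts per Ensembl gene, not normalised, judged from its values. GRCm38 and mm10 are the builds in the submitters' processing notes; the aligner, the counting program, the annotation and the use of strand are not given in the sources used here. The table's 168 genes on 455 rows had identical counts on each row and were counted once, and 0 sample columns were left unmapped. Positions and exon lengths came from GENCODE M21 on GRCm38 (55141 genes matched), and promoters from RefSeq on GRCm38.p6.

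Genes were kept with filterByExpr, scaled with TMM and fitted over all 9 libraries in edgeR 4.0.16 (R 4.3.3; glmQLFit with robust estimates, glmQLFTest), with group as the only term and Benjamini-Hochberg adjustment over 16955 genes. The procedure was tested on simulated counts. Standard errors of log2 fold changes were computed from each group's SD on the log2 CPM scale (prior count 2). That prior count narrows the spread of genes with few counts, so their standard errors are too small beside edgeR's fold changes. With 3 libraries a side, the smallest two-sided exact permutation p is 0.1, so no such test was used. For regional medians, each library's median deviation over a fixed 20 Mb stretch was removed from log2 CPM, and the result was tested with limma 3.58.1.

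Members and lists were chosen with earlier results of these data known. Values per library are given for called members with separate groups and a log2 fold change of at least 0.5 against WT, the most abundant member of each role, members called in both comparisons against WT, and others of interest chosen after their values were seen. Of other pathway genes, those with the smallest p per list, Jak1 and Tyk2 are named, and 1 gene of this rule is not reported here; Jak2 and Stat3 were added later. Alternatives were DESeq2 1.42.0, its size factors, library totals, other filters, a fit of just the groups compared, a block for replicate number, regional medians, and leaving out each library. Same-numbered libraries of different groups did not deviate together (correlations of -0.0421 to 0.049), so no shared shift by number was seen. Whether such libraries were prepared together is not in the labels, and these correlations cannot settle it.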

Additional observations from a re-analysis of the deposited data

How the results depend on the processing

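Of 39 calls of members, 17 held under every alternative that could test the gene, 22 were lost under at least 1, and 0 changed sign. Those that held were Isg15 in all 3 comparisons, Gbp2, Ifit1, Ifit2 and Stat2 in OE against WT and against KD, Irf9 and Ifngr2 in OE against WT, and Ddx58, Gbp7, Ifnar1 and Parp14 in OE against KD. For the others the cause was not tested. The count of members higher in KD than in WT, 3, was 0 with library totals alone, 1 with only the groups compared and 1 with regional medians removed. Those 3 fits called 14.6%, 18.4% and 19.0% of all tested genes in that comparison, against 21.3% in the reported fit. On leaving out each library in turn the count of members higher in KD ran from 0 to 3, and the count lower in KD from 2 to 7. Against WT, OE had 4 to 7 higher and 3 to 6 lower, and against KD 8 to 13 higher and 4 to 6 lower. The calls over all genes varied too on leaving out a library. They ran from 2537 to 4699 in KD against WT, 5228 to 6440 in OE against WT and 6072 to 7604 in OE against KD. Library totals moved the share of higher calls among all called genes from 51.4% to 35.8% in KD against WT and from 46.6% to 31.6% in OE against WT. With that scaling the median log2 fold change of all genes was -0.038 in KD and -0.06 in OE. Jak1, which is no member, turned direction with regional medians removed, to 0.13 in KD against WT and to -0.11 in OE against KD. The replicate number as a block gave 3574, 6111 and 6969 called genes in KD against WT, OE against WT and OE against KD, where the fit without it gave 3617, 6174 and 7031. Under that block members stood at 3 higher and 6 lower, 6 and 5, and 12 and 6, and Dhx58 in OE against WT was the only member's call lost. DESeq2 called 3808, 6278 and 7063 genes. With no filter beyond 1 count the members lower in KD were 7, Dtx3l being the gained call (adjusted p = 0.0249), and 0 of the 11 members outside the reported fit were called. Depth limits members with few counts, such as Ifit1, which passed the filter of the reported fit only through OE.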

Other observations

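Several interferon-induced genes outside the 45, chosen here after their values were seen, differed in KD. Gbp9, a guanylate-binding protein, had 12, 28 and 20 counts in WT, 6, 2 and 0 in KD, and 10, 24 and 18 in OE. KD lay below all other libraries, and Gbp9 was lower in KD than in WT (edgeR adjusted p = 0.00569) and higher in OE than in KD (edgeR adjusted p = 0.00453). Oas1c, an oligoadenylate synthetase relative, had 12, 9 and 14 counts in WT, 2, 2 and 4 in KD, and 13, 18 and 9 in OE. It was lower in KD than in WT (edgeR adjusted p = 0.0283) and higher in OE than in KD (edgeR adjusted p = 0.00887). Gbp9 and Oas1c entered the fit only through WT and OE libraries. Their KD libraries were below the count that the filter asks for, so these calls are not independent of the filter. Cgas, the sensor of cytosolic DNA, read 5.85, 6.07 and 6.44 CPM in WT, 4.47, 4.24 and 4.28 in KD, and 5.24, 7.57 and 6.27 in OE. Cgas fell 1.41-fold in KD against WT (edgeR adjusted p = 0.0119), with KD below all other libraries.

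Other genes moved with overexpression. Lgals3bp, a secreted glycoprotein induced by interferon, read 15.1, 18.8 and 18.5 CPM in WT, 11.3, 10.5 and 10.4 in KD, and 6.5, 7.35 and 5.65 in OE. The groups were separate, and it fell 1.63-fold in KD (edgeR adjusted p = 4.58e-05) and 2.69-fold in OE (edgeR adjusted p = 1.38e-09), both against WT. Ifi27l2a, another interferon-induced gene, averaged 2.78 ± 0.45 CPM in WT (SD over 3 libraries), against 2.25 ± 0.302 in KD and 1.17 ± 0.0465 in OE. It fell 2.36-fold in OE against WT (edgeR adjusted p = 4.86e-05). Tlr3 and Tlr4 are receptors for double-stranded RNA and for lipopolysaccharide. Tlr3 was 1.71-fold higher in OE than in WT (edgeR adjusted p = 0.000992), and Tlr4 was 1.49-fold higher in KD than in WT (edgeR adjusted p = 0.00026).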
